A study of Homo sapiens with 4 samples.

Results

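The genes described here are APOE and 7 others that share its regulation by liver X receptors or its function in cholesterol efflux, 8 of the 19389 protein-coding genes in the deposited table: APOE, APOC1, ABCA1, ABCG1, NR1H2, NR1H3, MYLIP and LRP1. Each was found as the row with that gene symbol. APOE was chosen by its measured FPKM, which were among those with the greatest increase in peroxide-treated cells, so its values are a description with no test. The other 7 were chosen for their regulation or function, with results of these data known. The RNA is that of SW620, an established line of human colorectal cancer cells, and the 4 libraries form 2 groups of 2: cells exposed to hydrogen peroxide (H2O2) for 2 days, and control cells. The dose on the sample labels is 150 µM, while the text on the design has mM in place of µM. The title of the series calls the treated cells senescent. All 4 libraries come from the same line, and the labels do not say whether each library had a culture of its own. A p-value here therefore reflects the spread among these 4 libraries alone, which may be technical.

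Liver X receptors are nuclear receptors that bind oxidised cholesterol (oxysterols). Paired with a retinoid X receptor, they switch on genes that move cholesterol out of the cell and limit its uptake. ABCA1 and ABCG1 pump cholesterol to acceptor particles, APOE and APOC1 are carried on such particles, MYLIP (also called IDOL) is a ubiquitin ligase that limits lipoprotein uptake, and LRP1 takes up particles that carry APOE. NR1H2 encodes LXR beta, which most tissues express, and NR1H3 encodes LXR alpha, best known from liver, intestine, fat and macrophages.

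The 250 bases before the RefSeq start site of 3 of the genes are shown, because APOE and APOC1 neighbour each other and both were higher in treated cells, while ABCA1, a textbook target of liver X receptors, was barely detected. The sequences are from RefSeq (GRCh38.p14), 5′ to 3′ on the strand of the gene. APOE lies at chr19:44905546-44905795 (plus strand, the first of 3 entries), APOC1 at chr19:44914422-44914671 (plus strand) and ABCA1 at chr9:104928156-104928405 (minus strand). In GENCODE release 29, used for the gene coordinates below, the 3 genes begin farther upstream, so the APOE and ABCA1 windows run into those genes and the APOC1 window lies within its gene. Capitals mark matches to the motifs searched, on either strand.
APOE: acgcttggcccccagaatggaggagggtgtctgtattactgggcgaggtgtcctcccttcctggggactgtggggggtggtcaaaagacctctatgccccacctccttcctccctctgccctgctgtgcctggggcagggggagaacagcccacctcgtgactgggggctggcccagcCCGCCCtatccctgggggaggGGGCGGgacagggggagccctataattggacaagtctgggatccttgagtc
APOC1: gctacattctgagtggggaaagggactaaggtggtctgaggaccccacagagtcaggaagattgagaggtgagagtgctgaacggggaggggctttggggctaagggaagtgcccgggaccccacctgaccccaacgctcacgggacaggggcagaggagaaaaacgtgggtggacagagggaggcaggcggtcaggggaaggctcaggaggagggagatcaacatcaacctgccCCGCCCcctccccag
ABCA1: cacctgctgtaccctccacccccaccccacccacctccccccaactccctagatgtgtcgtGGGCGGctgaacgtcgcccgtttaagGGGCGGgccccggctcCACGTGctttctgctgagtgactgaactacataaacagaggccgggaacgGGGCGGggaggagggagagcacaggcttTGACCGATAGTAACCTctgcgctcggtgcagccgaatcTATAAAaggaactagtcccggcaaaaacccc

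The element that liver X receptors bind is a repeat of AGGTCA with 4 bases between the copies (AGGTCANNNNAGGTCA, called DR4). With at most 2 mismatches in its 12 fixed letters, it was found in 1 of the 7 genes with an entry, ABCA1, as TGACCGATAGTAACCT on the strand opposite to the gene, beginning at -69 from the start site. The 7 genes have 12 entries, of which this 1 holds a match. Of 35116 promoters of the same length, 2.03% hold such a match. The ABCA1 sequence also holds CACGTG at -147 (6.34% of promoters) and TATAAA at -31 (10.7%). GGGCGG, present in 42.6% of promoters, lies at -72 and -51 in APOE, at -15 in APOC1, and at -189, -163 and -97 in ABCA1. A single AGGTCA (12.1%), the sterol element TCACNCCAC (0.883%) and the AP-1 motif TGANTCA (6.57%) were also searched and are not in these 3 windows. Among the 7 genes a single AGGTCA was found in 1 entry of NR1H3. ABCG1 was not among the matched entries. Only 250 bases per entry were searched, so a window without a match does not show that the gene lacks such an element.

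Values are FPKM, read fragments scaled to transcript length and to the number of mapped fragments, as deposited, so levels of different genes are compared per length. Read depth is unknown, since no counts were part of the table. The FPKM of a library summed to 574782 and 617668 for treated libraries 1 and 2 and to 695837 and 660860 for control libraries 1 and 2, and giving all libraries the same total (TPM) moved the median log2 change of all genes to 0.143, against -0.029 as deposited. The epithelial genes KRT8 (2669 and 2887 FPKM in treated, 3616 and 3281 FPKM in control), KRT18, KRT19, EPCAM and VIL1 were abundant. Of 10 colon epithelial markers, 7 were tested, with 2 positive and 5 negative log2 changes. Their median was -0.28, or -0.10 after rescaling to TPM. The adhesion gene CDH1 was at 22.98 and 16.6 FPKM in treated libraries, against 14.8 and 9.93 FPKM in controls, and the intestinal factor CDX2 at 4.68 and 1.98 FPKM in treated libraries, against 3.33 and 1.05 FPKM in controls, while CDX1 was listed at 0 in all 4 libraries and KRT20 and CDH17 stayed below 1 FPKM. In bulk RNA, a change in the number of cells that make a transcript and a change in RNA per cell cannot be told apart. Log2 changes are of log2(FPKM + 1), treated minus control, which understates the change of low genes. They were tested with limma over the 11318 genes that reached 1 FPKM in 2 or more libraries. Called by limma at an adjusted p under 0.05 were 0% of genes as higher and 0% as lower. Without adjustment, 6.22% of genes were higher and 4.91% lower at p under 0.05, and 45.7% of all tested genes had a positive change.

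APOE, the lipid carrier at chromosome 19, 44905754 to 44909393 (GRCh38, plus strand), had 45.9 and 61.1 FPKM in treated libraries 1 and 2, against 10.9 and 9.47 FPKM in control libraries 1 and 2. Both treated libraries lay well above both controls. The mean was 53.5 ± 10.7 FPKM in treated cells and 10.2 ± 1.04 FPKM in controls (SD, n = 2 each), a ratio of 5.25 and a log2 change of 2.27. Every treated library was at least 4.20 times every control library, and at most 6.45 times. By rank among the 19389 genes, APOE stood at 2051 and 1488 in the treated libraries and at 6487 and 6892 in the controls.

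APOC1, a smaller apolipoprotein whose gene begins 4.85 kb beyond the end of APOE on the same strand (chromosome 19, 44914247 to 44919349), had 27.8 and 41.7 FPKM in treated libraries, against 20.7 and 23.9 FPKM in controls. The groups did not overlap, although treated library 1 lay close to the controls. Its log2 change was 0.59 ± 0.23 (SE; limma, unadjusted p = 0.04, adjusted p = 0.427), and 0.31 without treated library 2. The ratio of APOE to APOC1 within a library was 1.65 and 1.47 in treated cells, against 0.528 and 0.396 in controls, so APOC1 was the more abundant of the pair in both controls and APOE in both treated libraries. APOC1 has a pseudogene copy in the same cluster, APOC1P1, and how reads shared with it were divided is not given in the sources used here.

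**Figure D1:**
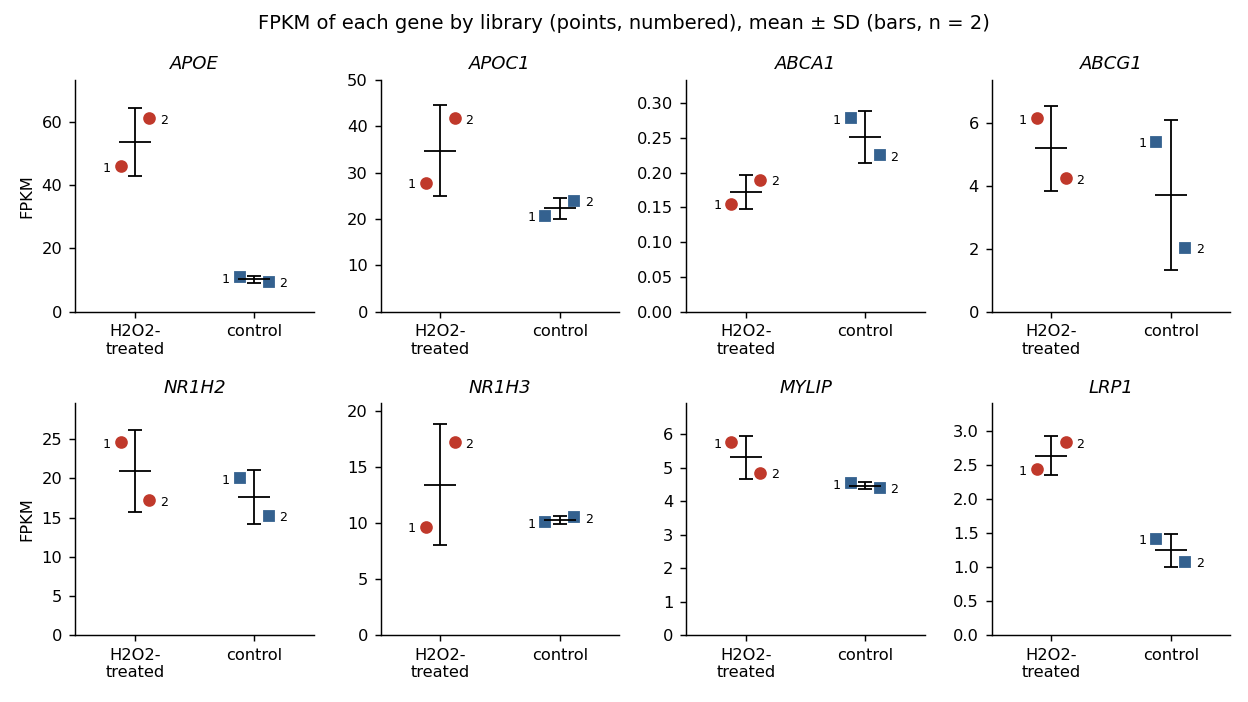
FPKM of the 8 genes by library (y axes, each from 0), treated libraries (red circles) left of controls (blue squares), numbered by replicate, with the mean and SD of 2 libraries as black bars. Groups do not overlap for APOE, APOC1, MYLIP and LRP1 (treated higher) and ABCA1 (treated lower, all 4 values below 0.3 FPKM), and overlap for ABCG1, NR1H2 and NR1H3.

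The exporter genes did not share the pattern of APOE. ABCA1 (chromosome 9, 104781002 to 104928237, minus strand) had 0.155 and 0.190 FPKM in treated libraries, against 0.278 and 0.225 FPKM in controls. Both treated libraries were below both controls, but all 4 values were under the 1 FPKM needed for testing, so no test was made, and at unknown depth values this low are imprecise. ABCG1 (chromosome 21, 42199689 to 42297244, plus strand) had 6.15 and 4.24 FPKM in treated libraries, against 5.41 and 2.03 FPKM in controls. The groups overlapped, with control library 2 lowest. Its log2 change was 0.48 ± 0.37 (SE; limma, adjusted p = 0.693), or -0.07 without control library 2.

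The receptor genes were expressed at similar levels in both groups, within a wide spread. NR1H2 (chromosome 19, 50329653 to 50382982, plus strand) had 24.6 and 17.2 FPKM in treated libraries, against 20.02 and 15.2 FPKM in controls, a log2 change of 0.22 ± 0.23 (SE; limma, adjusted p = 0.781). NR1H3 (chromosome 11, 47248300 to 47269032, plus strand) had 9.64 and 17.2 FPKM in treated libraries, against 10.05 and 10.5 FPKM in controls, a log2 change of 0.30 ± 0.27 (SE; limma, adjusted p = 0.738). The 2 treated libraries went opposite ways: library 1 was high in NR1H2 and low in NR1H3, and library 2 had equal levels of both. Accordingly the change of NR1H2 was -0.02 without treated library 1, and that of NR1H3 was -0.09 without treated library 2. The sum of both receptors was 34.2 and 34.4 FPKM in treated libraries, against 30.1 and 25.7 FPKM in controls.

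For the genes that act on lipoprotein uptake, neither passed the test, and the sizes of their differences were unlike. MYLIP (chromosome 6, 16129125 to 16148248, plus strand) had 5.76 and 4.85 FPKM in treated libraries, against 4.53 and 4.39 FPKM in controls, a log2 change of 0.20 ± 0.18 (SE; limma, adjusted p = 0.732). LRP1 (chromosome 12, 57128493 to 57213351, plus strand) had 2.44 and 2.84 FPKM in treated libraries, against 1.42 and 1.08 FPKM in controls. No treated library was below a control in either gene, and the gap was narrow for MYLIP. LRP1 averaged 2.64 ± 0.282 FPKM in treated cells and 1.25 ± 0.240 FPKM in controls (SD, n = 2 each), a log2 change of 0.70 ± 0.20 (SE; limma, unadjusted p = 0.0128, adjusted p = 0.337), and it stayed between 0.59 and 0.81 with any 1 library left out.

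Of the 7 genes chosen for function, 6 were tested, and limma called 0 of them at an adjusted p under 0.05. Before adjustment, at p under 0.05 by limma, LRP1 and APOC1 were higher, 2 of 6 (background 6.22% higher), and none was lower. That count was 3 without treated library 1, 1 without treated library 2, 2 without control library 1 and 0 without control library 2. All 6 had a positive change, where 45.7% of all tested genes did. Those of ABCG1, NR1H2 and NR1H3 turned negative (-0.07, -0.02 and -0.09) when 1 library was left out. Both treated libraries lay above both controls in 3 of the 6, where 19.3% of all tested genes showed that order and 24.0% the opposite one. The middle 50% of all tested genes had log2 changes between -0.20 and 0.16, so MYLIP at 0.20 and NR1H2 at 0.22 lay just above it. By mean level in treated cells the order was APOE, APOC1, NR1H2, NR1H3, MYLIP, ABCG1, LRP1 and ABCA1, where NR1H2 and NR1H3, and MYLIP and ABCG1, overlapped between libraries. In controls it was APOC1, NR1H2, NR1H3, APOE, MYLIP, ABCG1, LRP1 and ABCA1, where NR1H3 and APOE, and MYLIP and ABCG1, overlapped. Genes on the opposite strand overlap NR1H2, NR1H3, LRP1 and ABCA1 in GENCODE release 29, and a gene still to be experimentally checked on the same strand overlaps APOE and APOC1. The library kit keeps strand, but the strand setting used in quantification is not given in the sources used here, so reads of overlapping genes cannot be told apart.

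**Figure D2:**
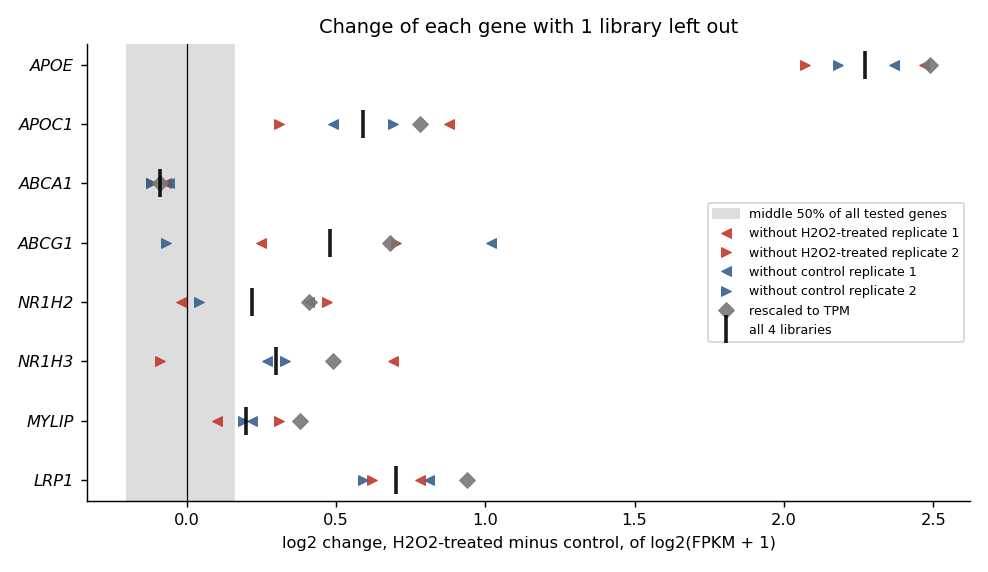
Log2 change of each gene (x axis, treated minus control, of log2(FPKM + 1)) with all 4 libraries (black bars), with 1 library left out (triangles) and after rescaling to TPM (diamonds), beside the middle 50% of all tested genes (grey). APOE stays between 2.07 and 2.49, while ABCG1, NR1H2 and NR1H3 each cross 0 when 1 library is left out.

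Around APOE on chromosome 19 there was no common direction. Of 22 other genes whose deposited locus reaches within 250 kb of APOE, some of which begin farther away, 16 were tested, with a median log2 change of 0.02 against -0.03 over all tested genes (0.19 against 0.143 after rescaling to TPM), and limma called 0 of them at an adjusted p under 0.05. TOMM40, a subunit of the mitochondrial import pore that begins 15.2 kb before APOE, had 120.4 and 90.4 FPKM in treated libraries, against 150.6 and 145.2 FPKM in controls. Both treated libraries were lower, with a log2 change of -0.50 ± 0.20 (SE; limma, unadjusted p = 0.042, adjusted p = 0.432). The change was -0.29 without treated library 2, -0.28 after cyclic loess normalization and -0.32 after rescaling to TPM. NECTIN2, a cell adhesion gene on the far side of TOMM40, had 40.7 and 48.8 FPKM in treated libraries, against 49.2 and 44.5 FPKM in controls. On the other side of APOC1, the gene of the lipoprotein lipase cofactor APOC2 was the most abundant apolipoprotein of the cluster, with 91.2 and 169.5 FPKM in treated libraries, against 123.3 and 127.8 FPKM in controls. Its controls lay between its treated libraries, and its log2 change was -0.01 ± 0.30 (SE; limma, adjusted p = 0.995), or 0.43 without treated library 1. APOC4 had 0.0828 and 0.292 FPKM in treated libraries and was listed at 0 in both controls. A read-through gene shares the locus of APOC2 and APOC4, so the split of reads between them is uncertain. At an unadjusted p under 0.05 limma also had the kinase gene MARK4 higher (log2 change of 0.60) and CLPTM1 lower (-0.44, or -0.26 after rescaling to TPM). BCL3, a regulator of NF-kB, had 1.53 and 2.95 FPKM in treated libraries, against 0.715 and 1.08 FPKM in controls. Its log2 change was 0.75, or 0.42 without treated library 2. Control library 1 was below 1 FPKM, so BCL3 was tested on the strength of its treated values. A lower level could hardly have been seen. At an unadjusted limma p under 0.05 the counts were 2 higher, BCL3 included, and 2 lower of 16 (6.22% and 4.91% over all tested genes). The place of BCL3 in that count is not read as a result.

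**Figure D3:**
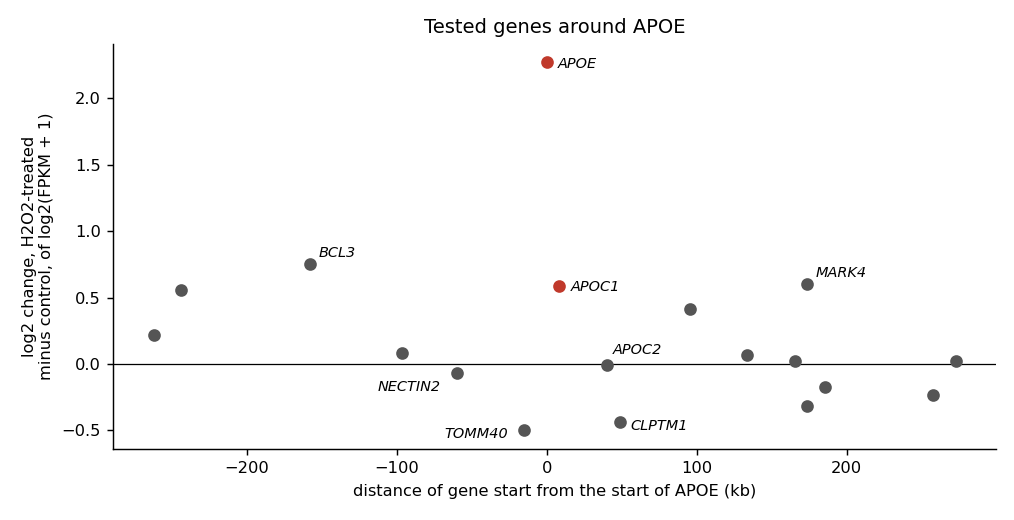
Log2 change (y axis, treated minus control, of log2(FPKM + 1)) of tested genes against the distance of their start from the start of APOE (x axis, kb, GENCODE release 29), with APOE and APOC1 in red. APOE stands at 2.27, APOC1 at 0.59 and the other genes between -0.50 and 0.75. BCL3, the gene at 0.75, was tested on the strength of its treated values.

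Other targets of liver X receptors were mixed. Of 19 listed, 11 were tested, with 6 positive and 5 negative changes (45.7% of all tested genes were positive). Their median log2 change was 0.05, and limma called 0 of them at an adjusted p under 0.05. PLTP, which transfers phospholipid between lipoproteins, came nearest to APOE, with 29.7 and 33.1 FPKM in treated libraries, against 9.95 and 10.9 FPKM in controls. Both treated libraries were far above both controls, and the means were 31.4 ± 2.46 FPKM in treated cells and 10.4 ± 0.657 FPKM in controls (SD, n = 2 each). Its log2 change was 1.50 ± 0.16 (SE; limma, unadjusted p = 7.47e-05, adjusted p = 0.0769). With 1 library left out, the log2 change of PLTP was between 1.43 and 1.58. After rescaling to TPM it was 1.71 (limma, adjusted p = 0.024). That fit called 32 genes higher over all tested genes, against 0 in the fit as deposited. MERTK, a receptor for the uptake of dying cells, had 3.03 and 3.41 FPKM in treated libraries, against 1.65 and 1.72 FPKM in controls (log2 change 0.65 ± 0.19, SE; limma, unadjusted p = 0.0121, adjusted p = 0.331). SREBF1, the regulator of fatty acid synthesis and a classic target, named for its role after its values were seen, lay lower, with 47.5 and 28.4 FPKM in treated libraries, against 49.9 and 56.1 FPKM in controls (log2 change -0.51 ± 0.26, SE; limma, adjusted p = 0.54). That change rested largely on treated library 2, being -0.15 without it and -0.87 without treated library 1, and it was -0.33 after rescaling to TPM. At an unadjusted p under 0.05, limma had 2 of the 11 higher and 0 lower, against 6.22% higher and 4.91% lower over all tested genes. The counts were 3 and 2 without treated library 1, 4 and 1 without treated library 2, and 1 and 0 with either control library left out. The list's median was between -0.04 and 0.14 with 1 library left out and 0.19 after rescaling to TPM (0.143 over all tested genes).

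Among partners and coregulators of the receptors, 16 of 17 were tested, with 6 positive and 10 negative changes. Of all tested genes, 45.7% were positive. The list's median log2 change was -0.04, with -0.12 without treated library 1 and 0.14 without treated library 2. After rescaling to TPM it was 0.14, against 0.143 over all tested genes. PPARA, among the positive, had 1.07 and 1.06 FPKM in treated libraries, against 0.559 and 0.670 FPKM in controls. It was tested on the strength of its treated values, so it could hardly have counted as negative. RXRA, the common partner, also named for its role, had 11.6 and 11.9 FPKM in treated libraries, against 12.1 and 11.7 FPKM in controls. PPARD, a fatty acid sensor among the nuclear receptors, had 8.70 and 10.1 FPKM in treated libraries, against 5.51 and 5.74 FPKM in controls (log2 change 0.65 ± 0.17, SE; limma, unadjusted p = 0.00871, adjusted p = 0.311). It was the 1 of 16 higher at an unadjusted limma p under 0.05, and none was lower. Over all tested genes, 6.22% were higher and 4.91% lower, so this count was near the background. Of 9 genes that make or clear oxysterols, 5 were tested, and CH25H, CYP46A1 and CYP7B1 were listed at 0 in all 4 libraries. SULT2B1, which attaches sulphate to sterols, had 1.86 and 2.46 FPKM in treated libraries, against 0.813 and 0.277 FPKM in controls. Being below 1 FPKM in both controls, it was tested on the strength of its treated values, so that a lower level could hardly have been seen. No test of it is given.

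Other cholesterol transporters and HDL factors leaned to higher values, with 14 positive and 5 negative changes among 19 tested of 22 (45.7% of all tested genes were positive), and a median log2 change of 0.15. ABCA7, a relative of ABCA1 that exports phospholipid, had 6.58 and 7.18 FPKM in treated libraries, against 3.01 and 3.04 FPKM in controls. Its log2 change was 0.97 ± 0.17 (SE; limma, unadjusted p = 0.00119, adjusted p = 0.222). ABCA2, a lipid transporter of endosomes and lysosomes, averaged 6.25 ± 0.982 FPKM in treated libraries and 3.59 ± 0.574 FPKM in controls (SD, n = 2 each). NPC1, which releases cholesterol from lysosomes, averaged 12.5 ± 1.76 FPKM in treated libraries and 8.66 ± 0.933 FPKM in controls (SD, n = 2 each). All 3 genes had treated libraries above both controls. They were the 3 of 19 at an unadjusted limma p under 0.05, none was lower (6.22% higher and 4.91% lower over all tested genes), and limma called 0 at an adjusted p under 0.05. The counts higher and lower were 6 and 0 without treated library 1, 4 and 2 without treated library 2, 1 and 1 without control library 1, and 2 and 0 without control library 2. The list's median was 0.28, 0.09, 0.04 and 0.15 in those same settings, and 0.34 after rescaling to TPM (0.143 over all tested genes).

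Other lipoprotein receptors were divided, with 10 positive and 11 negative changes among 21 tested of 27 (45.7% of all tested genes were positive). Their median log2 change was -0.01, or 0.15 after rescaling to TPM (0.143 over all tested genes). SDC4, a heparan sulphate proteoglycan that can bind lipoproteins, had 47.5 and 64.9 FPKM in treated libraries, against 34.3 and 26.3 FPKM in controls (log2 change 0.86 ± 0.22, SE; limma, unadjusted p = 0.00769, adjusted p = 0.309). SDC4 was the 1 of 21 higher at an unadjusted limma p under 0.05, and none was lower. Over all tested genes, 6.22% were higher and 4.91% lower. Of 19 genes for other apolipoproteins or the assembly factor MTTP, 5 were tested. Of these, APOL6 had 2.16 and 1.17 FPKM in treated libraries, against 0.987 and 0.359 FPKM in controls. It was tested on the strength of its treated values, so a lower level could hardly have been seen. APOM, an HDL protein, lay lower, with 3.91 and 5.04 FPKM in treated libraries, against 8.01 and 7.58 FPKM in controls (log2 change -0.69 ± 0.19, SE; limma, unadjusted p = 0.00944, adjusted p = 0.318). APOM was the 1 of 5 lower at an unadjusted limma p under 0.05, and none was higher. APOB, the core protein of LDL, was listed at 0 in both controls and treated library 2 and at 0.00237 FPKM in treated library 1.

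Sterol synthesis genes leaned the other way, with 5 positive and 16 negative changes among 21 tested (45.7% of all tested genes were positive), and a median log2 change of -0.22. The median was -0.03 without treated library 1, -0.32 without treated library 2, -0.34 without control library 1 and 0.01 without control library 2. After rescaling to TPM it was -0.04, where that of all tested genes was 0.143, against -0.029 as deposited. PMVK, a kinase of the mevalonate pathway, had 12.5 and 11.5 FPKM in treated libraries, against 23.5 and 20.4 FPKM in controls (log2 change -0.82 ± 0.17, SE; limma, unadjusted p = 0.00241, adjusted p = 0.247). PMVK was the 1 of 21 lower at an unadjusted limma p under 0.05, and none was higher. Over all tested genes, 4.91% were lower and 6.22% higher. In all 7 lists limma called 0 genes at an adjusted p under 0.05.

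**Figure D4:**
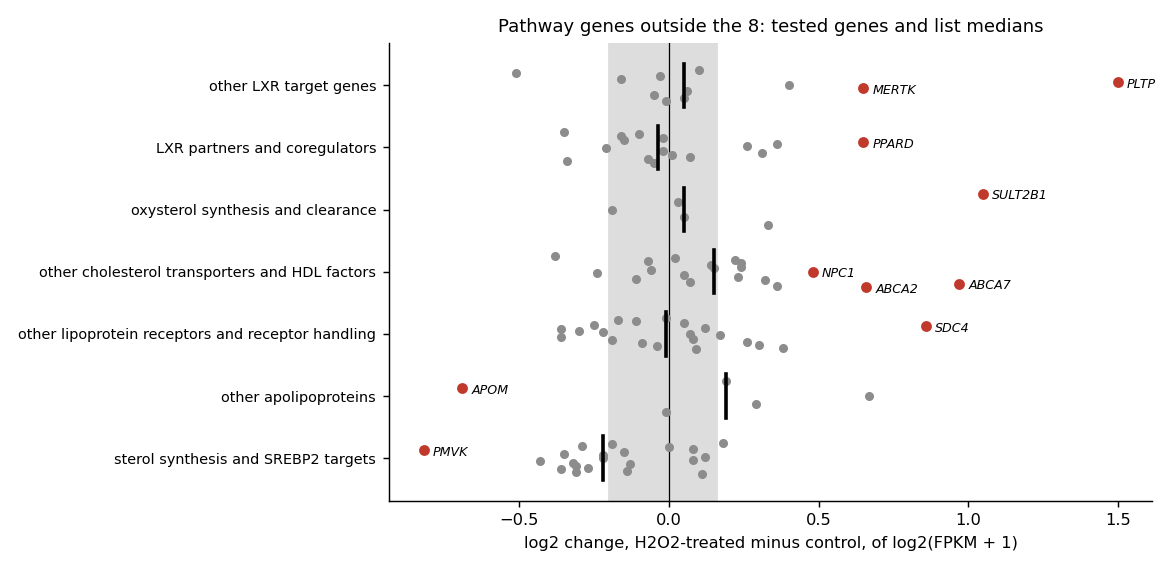
Log2 change (x axis, treated minus control, of log2(FPKM + 1)) of the tested genes of 7 lists around the 8 genes, with list medians as black bars, genes at an unadjusted limma p under 0.05 in red with their names, and the middle 50% of all tested genes in grey. SULT2B1, PPARA and APOL6 were tested on the strength of their treated values and could hardly have been lower. The red mark of SULT2B1 is therefore not read as a result. List medians lie between -0.22 and 0.19, and PLTP has the greatest change, at 1.50.

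Macrophages, hepatocytes and astrocytes also make APOE, and their markers were read in the same libraries. Of 12 macrophage and leukocyte markers, the summed level was 8.56 and 19.1 FPKM in treated libraries, against 2.60 and 2.75 FPKM in controls. Most of that was CD68, a lysosomal protein abundant in macrophages, with 7.65 and 17.7 FPKM in treated libraries, against 1.92 and 1.83 FPKM in controls, and the 11 others summed to 0.905 and 1.34 FPKM in treated libraries, against 0.680 and 0.919 FPKM in controls. C1QA, C1QB and TYROBP were listed at 0 in all 4 libraries, and PTPRC was at 0.00822 FPKM in treated library 1 and at 0 in the others. CD14, CSF1R, ITGAM and CD163 had both treated libraries above both controls, all below 1 FPKM. The highest of them, CD14, had 0.440 and 0.532 FPKM in treated libraries, against 0.298 and 0.401 FPKM in controls. C1QC, FCER1G and AIF1, also below 1 FPKM, overlapped between groups. The part of CD68 in the level of APOE was not tested. The 6 hepatocyte markers summed to 17.9 and 27.7 FPKM in treated libraries, against 11.7 and 22.3 FPKM in controls, most of it SERPINA1, while ALB was at most 0.149 FPKM. The 5 astrocyte markers summed to less than 1 FPKM in each library, and AQP4 was at 0.

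By the distance between centred log2(FPKM + 1) values over the 4 libraries, the 5 genes nearest to APOE among those tested were AKAP12, FLNC, OR51B5, DUSP5 and ZFP90, at distances of 0.18 to 0.35. AKAP12, a scaffold of kinase A, had 74.5 and 84.4 FPKM in treated libraries, against 16.1 and 15.1 FPKM in controls. FLNC, an actin crosslinker that was below 1 FPKM in both controls, had 4.28 and 4.78 FPKM in treated libraries, against 0.356 and 0.209 FPKM in controls. OR51B5, likewise below 1 FPKM in both controls, had 4.53 and 7.35 FPKM in treated libraries, against 0.387 and 0.510 FPKM in controls. FLNC and OR51B5 thus entered the tested genes through their treated values alone. DUSP5, a phosphatase of ERK, had 21.5 and 26.3 FPKM in treated libraries, against 5.80 and 4.07 FPKM in controls. These share the direction for which APOE was chosen, so the likeness is a description over 4 libraries only.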

How the data were processed

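RNA was measured in 2 H2O2-treated and 2 control libraries of SW620 cells. Per the submitters' processing notes, STAR 2.5, Cufflinks 2.2.1 and the build hg38 were used, with no role or order given. The authors deposited FPKM, 1 value per gene and library, with no counts; the sources used here give no annotation, filter or strand setting. Samples were grouped by their titles. FPKM were transformed as log2(FPKM + 1), and the 11318 of 19389 genes that reached 1 FPKM in 2 or more libraries were fitted with limma 3.58.1 (R 4.3.3), with group as the only term and a trend with abundance, a two-sided test (2 degrees of freedom residual, 6.28 in total) and Benjamini-Hochberg adjustment over all genes tested, called at an adjusted p under 0.05. The script was tested on simulated data. Symbols on 2 rows (14) were read from the row with the higher mean.

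Some listed genes are not reported here by name. The members and lists were chosen with earlier results of these data known, and the motifs with the sequences in view. Named by rule from each list were up to 4 genes with the smallest unadjusted p under 0.05, and around APOE also its direct neighbours and all such genes. APOB, CH25H, CYP46A1, CYP7B1, SREBF1 and RXRA were named for their role after their values were seen. All list symbols matched a row. Coordinates are 1-based, from GENCODE release 29 on GRCh38. The deposited loci begin 1 base earlier or, for NR1H2, NR1H3 and LRP1, farther upstream. There were 14 alternatives: pseudocounts of 0.1 and 5, no filter or a mean of at least 5 FPKM, TPM, upper-quartile, quantile and cyclic loess scaling, no trend, a replicate block and each library left out. Figures were drawn with matplotlib 3.10.9.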

Additional observations from a re-analysis of the deposited data

How the results depend on the processing

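The direction of APOE, APOC1, MYLIP and LRP1 was the same under every alternative that gave a value, with log2 changes of 1.93 to 2.49 for APOE, 0.31 to 0.88 for APOC1, 0.10 to 0.38 for MYLIP and 0.29 to 1.03 for LRP1, and none of the tested members passed the adjusted threshold under any of them. With a pseudocount of 5 the change of APOE was 1.93, and that of ABCA1 (-0.09) was -0.37 with a pseudocount of 0.1 and -0.02 with 5. Leaving out 1 library gave 2.07 to 2.47 for APOE, -0.12 to -0.06 for ABCA1, -0.07 to 1.02 for ABCG1, -0.02 to 0.47 for NR1H2 and -0.09 to 0.69 for NR1H3. The sign of NECTIN2 (-0.07) turned after cyclic loess (0.05), quantile normalization (0.03) and TPM (0.11), and without treated library 1 (0.06) or control library 1 (0.00), and ranged from -0.20 to 0.06 with 1 library left out. That of APOC2 (-0.01) turned after cyclic loess (0.20), quantile normalization (0.17), TPM (0.17) and upper-quartile scaling (0.02), and without treated library 1 (0.43) or control library 2 (0.01), with -0.46 to 0.43 over the libraries left out, and that of RXRA (-0.02) after TPM (0.16) and upper-quartile scaling (0.01). Over all tested genes the median was -0.029 as deposited, 0.143 after TPM and -0.000 after upper-quartile scaling. The cause of these turns was not tested. Over all genes, limma called 0 higher and 0 lower; the calls higher were 5 at a mean of at least 5 FPKM and 32 after TPM, and with 1 library left out 8 to 127 higher and 0 to 13 lower, where a lone library is taken to vary as the other group does. Members with a mean under 5 FPKM (ABCA1, ABCG1, MYLIP and LRP1) have no value at that filter, and ABCA1 has none in fits that need the 1 FPKM filter.

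With the library number as a replicate block, 397 genes were called higher and 190 lower, and the changes of the members were the same; none of the members tested passed the adjusted threshold, while PLTP (adjusted p = 0.000413), ABCA7 (0.012), SDC4 (0.0258) and PMVK (0.0146) passed limma's. Libraries of equal number tended to deviate alike (r = 0.451 over the tested genes), but the labels do not say that a number marks a shared culture or day, so the numbers are not taken as pairs.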
